A study of Mus musculus with 12 samples.

Results

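The nuclear genes of the mitochondrial ribosome were followed in mouse regulatory and conventional T cells after 2 days of a stapled FOXP3 peptide, with Mrpl33 set against the rest of the family. Members were the gene symbols that begin with Mrpl or Mrps and a number: 77 of the 10507 symbols listed in either table of the study, and the same 77 in the table of 10405 Treg genes and in that of 9886 Tcon genes. No 2 member rows held identical values, so each counted as its own gene. The annotation lists 78 such protein-coding genes, and Mrpl36 was not analysed here.

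RNA was sequenced from CD4+CD25+FOXP3+ Treg and from naive CD4+ Tcon, both of B6.Cg-Foxp3tm2Tch/J mice, in which an IRES-GFP cassette at the Foxp3 locus makes Foxp3-expressing cells green. Every library comes from this reporter strain, and the age of the mice is not given in the labels. Mice were given SAH-FOXP3(229-259)C, a peptide held in a helix by a chemical staple, at 25 mg/kg intraperitoneally once a day, or vehicle, named DMSO in the titles. Each cell type has 2 SAH libraries and 1 vehicle library from spleen and 2 SAH libraries and 1 vehicle library from lymph node, 12 libraries in all. The labels do not say whether libraries came from separate mice, so p-values measure the spread between these libraries, which may be technical. The study asked what the peptide does to RNA in Treg and Tcon, and the comparisons are SAH with vehicle, spleen with lymph node, and the dependence of one on the other.

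The mitochondrial ribosome translates the few messenger RNAs that mitochondrial DNA encodes, all of them for subunits of the respiratory chain and ATP synthase. Its RNAs come from mitochondrial DNA, and its proteins are encoded in the nucleus, made in the cytosol and imported. Some descend from bacterial ribosomal proteins and others are found only in mitochondria. The large subunit joins amino acids, and the small subunit reads the message. MRPL33 is a small protein of the bacterial L33 family, near the exit site for spent transfer RNA on the large subunit. Treg are known to rely on respiration.

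Of the 77 members, 50 encode large subunit proteins, 29 with a bacterial counterpart and 21 found only in mitochondria, and 26 encode small subunit proteins, 16 and 10 of these kinds. Mrps30 and Mrps18a belong to the large subunit despite their symbols. Mrps36 is now known as a component of the 2-oxoglutarate dehydrogenase complex and was kept because its symbol meets the rule. The 77 genes lie on 17 chromosomes, 11 of them on chromosome 11.

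Mrpl33 (ENSMUSG00000106918.3) lies on chromosome 5 of mm10, plus strand, at chr5:31596935-31664384. Its coding transcript has 4 exons and 478 bases, of which 198 encode protein, between positions 31614001 and 31622426. Only 2 members, itself and Mrpl52, have a coding transcript this short. The coding sequence is shown because Mrpl33 is the gene set against the family. The 19 bases of exon 2 (chr5:31614603-31614621) are in capitals, and the letters were read from the GENCODE vM21 transcript.
Mrpl33 coding sequence: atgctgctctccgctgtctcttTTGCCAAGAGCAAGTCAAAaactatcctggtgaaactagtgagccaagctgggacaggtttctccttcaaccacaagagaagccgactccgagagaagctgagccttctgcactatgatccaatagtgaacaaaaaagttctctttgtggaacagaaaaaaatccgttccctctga

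A promoter is shown for Mrpl33, whose SAH difference in Treg varied between spleen and lymph node more than that of any other member. Another is shown for Mrpl45, the member with the most negative organ difference in Treg. Each runs from 250 bases before the start to 10 after it, 5′ to 3′, from RefSeq with build GRCm38.p6. The Mrpl33 window is chr5:31613701-31613960 and the Mrpl45 window chr11:97315466-97315725, both on the plus strand. Capitals mark the ETS motif CCGGAAG.
Mrpl33 promoter: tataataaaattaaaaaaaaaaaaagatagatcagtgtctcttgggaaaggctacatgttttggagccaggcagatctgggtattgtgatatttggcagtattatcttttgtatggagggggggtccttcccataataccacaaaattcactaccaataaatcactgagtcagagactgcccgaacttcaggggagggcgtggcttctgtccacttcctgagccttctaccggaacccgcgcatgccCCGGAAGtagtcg
Mrpl45 promoter: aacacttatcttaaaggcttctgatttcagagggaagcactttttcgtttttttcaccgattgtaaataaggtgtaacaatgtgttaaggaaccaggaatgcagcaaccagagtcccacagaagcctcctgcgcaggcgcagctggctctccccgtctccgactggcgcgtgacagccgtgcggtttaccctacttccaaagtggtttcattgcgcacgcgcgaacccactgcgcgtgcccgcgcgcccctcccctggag

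Searches on both strands over 250 bases before to 50 after the start found the ETS motif CCGGAAG in 26 of 75 windows of the 69 members with an entry, or 34.7%. It was in 8.86% of 32851 windows of all genes. Those windows were not limited to genes listed in the study, and the share among listed genes alone was not taken. Mrpl33 holds it once, across its start, with no match of either other motif over it. The core motif of NRF1 was in 4% of member windows and 0.971% of all windows, and that of YY1 in 6.67% of member windows and 0.633% of all windows. Neither is in the windows printed for Mrpl33 and Mrpl45. These are matches of letters and were not tested.

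Values are the authors' CPM, reads of a gene scaled to the depth of its library. Rebuilt reads over listed genes numbered 36442420 to 48888678 per library, at which 1 read is worth 0.0209 to 0.0267 CPM. Members had 207 to 3305 reads per library in Treg and 196 to 4760 in Tcon, and Mrpl33 had 444 to 903 and 585 to 1059. The 4 Treg markers (Foxp3, Il2ra, Ctla4 and Ikzf2) summed to 3706 to 4219 CPM in Treg and 204 to 253 CPM in Tcon. The 4 T cell markers summed to 1964 to 2047 CPM in Treg and 1997 to 2209 CPM in Tcon. In bulk RNA, a change in the mix of cells and a change of RNA per cell cannot be told apart.

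The family was expressed in every library at moderate levels. The 76 members other than Mrpl33 summed to 1413 to 1525 CPM in the 6 Treg libraries and 1494 to 1640 CPM in the 6 Tcon libraries, and the median member had 15.4 to 17.2 CPM in Treg and 16.4 to 17.7 CPM in Tcon. The 2 tables were normalized separately, so these stand side by side with no test. Per kilobase of coding transcript, the level shown for each member in the plot of levels per length, the median was 12.9 CPM in Treg and 12.2 CPM in Tcon for large subunit genes and 9.48 CPM in Treg and 10.9 CPM in Tcon for small subunit genes. Members at the top in Treg were Mrpl52 at 79.3 ± 4.23, Mrpl24 at 47.2 ± 1.03 and Mrpl9 at 42.9 ± 1.54 CPM per kilobase (SD, n = 6 each), all of the large subunit. At the bottom were Mrps17 at 1.50 ± 0.168, Mrpl47 at 1.66 ± 0.143 and Mrps25 at 2.04 ± 0.0720 CPM per kilobase (SD, n = 6 each), and Mrps17 and Mrpl47 overlap within 1 SD. Mrpl33 ranked 5 of 77 in both tables, at 33.8 ± 9.75 CPM per kilobase in Treg and 38.6 ± 7.18 in Tcon (SD, n = 6 each). This order depends on the annotated length of 1 coding transcript per gene, and the transcripts that gave the reads are not known. Not divided by length, the mean of Mrpl33 was 16.2 CPM in Treg and 18.5 CPM in Tcon. The median of the members' means was 16.3 and 17.3 CPM. The SD of Mrpl33 per kilobase is wider than that of each of the other 6 members named here.

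**Figure D1:**
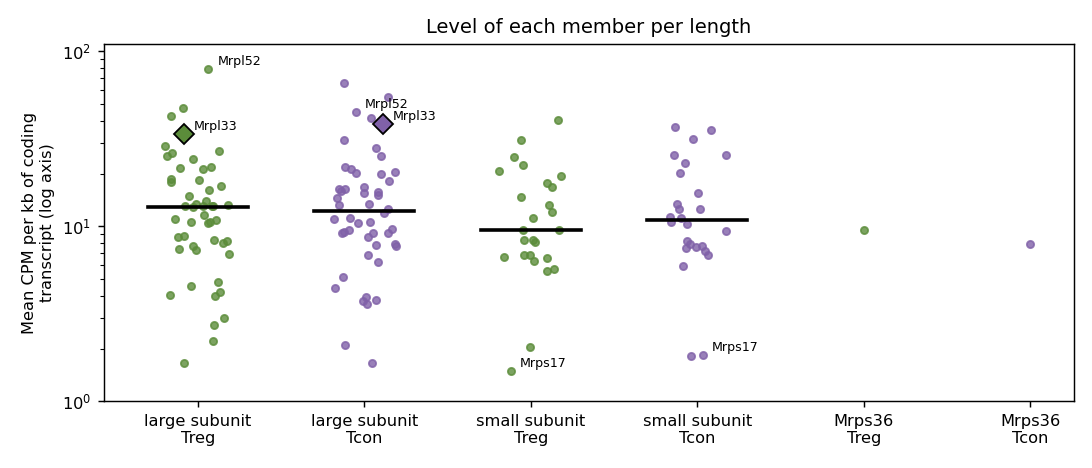
Mean CPM per kilobase of coding transcript over 6 libraries (vertical, log axis) for each of the 77 members, by subunit and cell type. Each point is 1 member, black lines are medians and diamonds are Mrpl33, which ranks 5 of 77 in both cell types. The order depends on the annotated length of 1 transcript per gene.

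Mrpl33 stood apart from the family by its spread between libraries. In Treg it had 21.5 and 20.8 CPM in the spleen SAH libraries and 12.7 CPM in the spleen vehicle library. In lymph node Treg it had 12.2 and 11.1 CPM in the SAH libraries and 18.6 CPM in the vehicle library. Both SAH libraries were thus above vehicle in spleen and below it in lymph node, and the groups did not overlap in either organ. Counting error is smaller than these gaps: the exact 95% Poisson interval was 20.1 to 23.0 and 19.4 to 22.2 CPM for the spleen SAH libraries and 11.6 to 13.8 CPM for spleen vehicle. It was 11.2 to 13.3 and 10.1 to 12.2 CPM for the lymph node SAH libraries and 17.3 to 19.9 CPM for lymph node vehicle. These intervals cover counting error only.

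In Tcon, Mrpl33 had 17.6 and 17.8 CPM in the spleen SAH libraries and 18.5 CPM in the spleen vehicle library. In lymph node Tcon it had 25.1 and 16.2 CPM in the SAH libraries and 15.6 CPM in the vehicle library. One lymph node SAH library, number 2, was higher than every other Tcon library, and the other SAH library of that organ lay close to vehicle. All 5 Tcon libraries other than number 2 lay between 15.6 and 18.5 CPM.

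**Figure D2:**
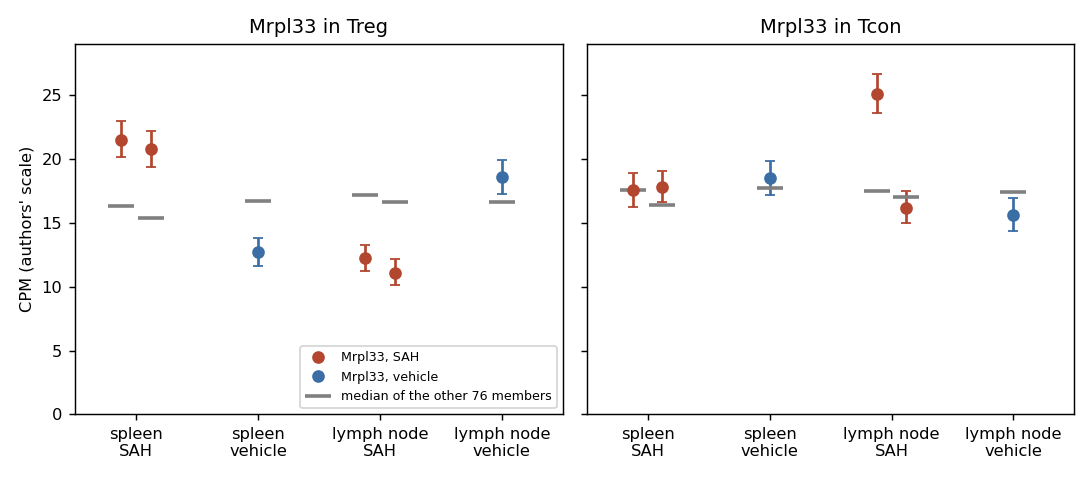
Mrpl33 in CPM (vertical) in each library of Treg and Tcon, by organ and treatment. Points are libraries with exact 95% Poisson intervals and grey bars are the median of the other 76 members in the same library. The median lies between 15.4 and 17.7 CPM and Mrpl33 between 11.1 and 25.1 CPM, where a median of 76 genes is steadier than a single gene.

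The spread of a member was taken as the SD of log2(CPM + 1) over the 6 libraries of a cell type. For Mrpl33 it was 0.40 in Treg, where the other 76 members had a median of 0.09 and a highest value of 0.18, in Mrps6. In Tcon it was 0.23, where the others had a median of 0.10 and a highest value of 0.19, in Mrpl53. Mrpl33 ranked first of 77 in both. In Tcon this spread comes mainly from library 2, at 25.1 CPM, as the other Tcon libraries lay between 15.6 and 18.5 CPM. Among all genes of the table, 2.33% had an SD as large or larger in Treg and 6.69% in Tcon, so Mrpl33 is wide within its family and in the upper tail of the whole table. Its highest library was 1.94 times its lowest in Treg and 1.61 times in Tcon. For the other members that ratio had a median of 1.20 and a highest value of 1.45, in Mrpl55, in Treg, and a median of 1.23 and a highest value of 1.53, in Mrpl53, in Tcon.

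**Figure D3:**
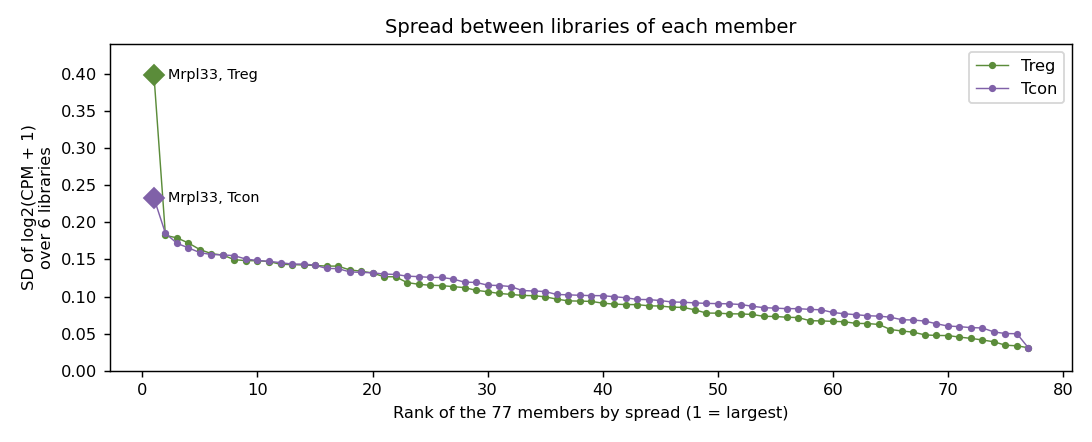
SD of log2(CPM + 1) over 6 libraries (vertical) for each of the 77 members, ranked from the largest down (horizontal), in Treg and Tcon. Mrpl33 is marked by a diamond and ranks first in both, at 0.40 in Treg and 0.23 in Tcon. The Tcon value comes mainly from library 2.

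Whether SAH acted differently in the organs was tested by an organ by treatment term in the limma model of each cell type (linear model with empirical Bayes and intensity trend on log2(CPM + 1), two-sided, Benjamini-Hochberg over all genes of the table, called below 0.05). In Treg, 1 of 77 members was called, and 0.00961% of all genes tested were: Mrpl33 was the 1 gene called of 10405. The SAH minus vehicle difference of Mrpl33 was 1.32 log2 units higher in spleen than in lymph node (95% interval 0.95 to 1.69, limma adjusted p = 0.0143). That is a 2.50-fold difference between the organs' effects, with an interval of 1.93 to 3.23. Within spleen, SAH minus vehicle was 0.69 (0.43 to 0.95, limma adjusted p = 0.0583), and within lymph node it was -0.63 (-0.89 to -0.37, limma adjusted p = 0.0597). Neither single-organ difference passed the threshold, where 0 of 77 members and 0.0673% of all genes were called in spleen, and 0 of 77 and 0.163% in lymph node.

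The organ by treatment term rests on 1 vehicle library per organ, and its 2 residual degrees of freedom come from the SAH pair of each organ. With lymph node SAH library 2 left out it was 1.38 (limma adjusted p = 0.482), and with lymph node SAH library 3 left out 1.26 (limma adjusted p = 0.987), so the call was lost while the value moved little. Without spleen SAH library 5 or 6 it kept its call, and both single-organ differences were then called as well. Each of these fits leaves 1 SAH library in an organ, so its spread comes from the SAH pair of the other organ alone. Calls over the whole table moved with the library left out, so the kept and new calls are not read as a result. An exact two-sided permutation of the vehicle label within organs has 9 arrangements, and the observed one was the most extreme (p = 0.111, the smallest that 9 arrangements can give).

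No other member was called in Treg. After Mrpl33, the largest organ by treatment differences in Treg were those of Mrps18c at -0.51, Mrps27 at 0.37 and Mrpl14 at 0.37, none of which passed the test (limma adjusted p at least 0.999 each). All members had a median of -0.01 and all genes of -0.00. When each library was centred on the median log2 value of the other 76 members, so that Mrpl33 was tested against its family, its difference was 1.42 (limma adjusted p = 0.000163). Relative to that median, Mrpl33 was 0.38 and 0.41 log2 units above in the spleen SAH libraries and 0.37 below in spleen vehicle. It was 0.46 and 0.54 below in the lymph node SAH libraries and 0.15 above in lymph node vehicle. The family median moved between libraries by far less than Mrpl33 did, but a median of 76 genes is steadier than a single gene. The spread of single members is given above.

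Both SAH libraries above vehicle in spleen and both below it in lymph node was itself a common pattern: 7 of 77 members showed it in Treg, beside 7.47% of all genes. They were Mrpl14, Mrpl22, Mrpl30, Mrpl33, Mrps7, Mrps27 and Mrps33. In Tcon 2 of 77 members, Mrpl38 and Mrps2, showed it, beside 9% of all genes. By the size of the organ by treatment difference Mrpl33 ranked 1 of 77 members and 2 of 10405 genes in Treg. A measure made after its pattern was seen, the smaller of the sizes of a gene's effects in spleen and lymph node where they have opposite signs, only describes it: 0.63 log2 units and rank 1 of 10405 genes in Treg, with 0.24 for the next member, Mrps18c, and 0.06 and rank 1413 of 9886 genes in Tcon.

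**Figure D4:**
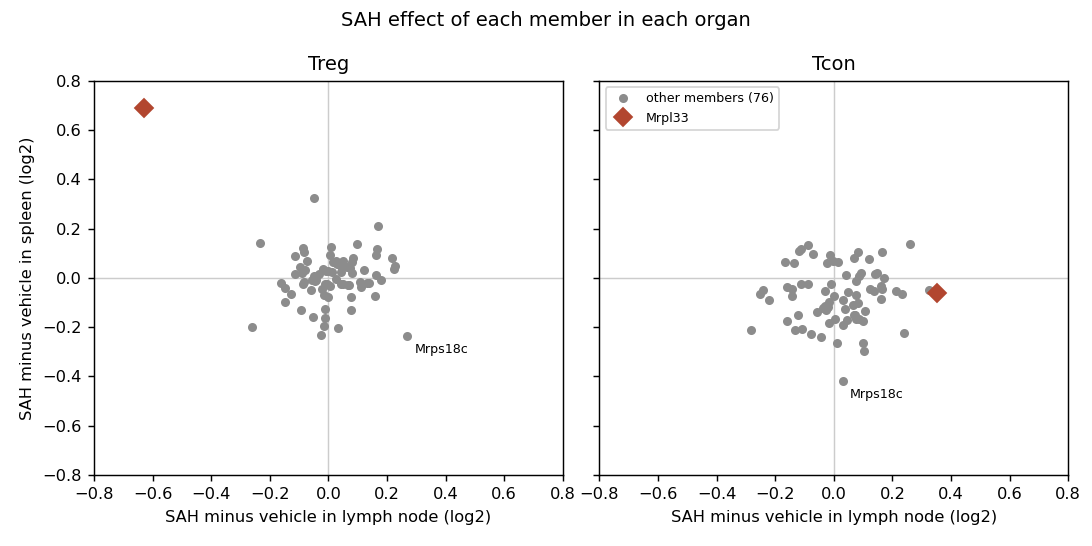
SAH minus vehicle on the log2(CPM + 1) scale in spleen (vertical) and in lymph node (horizontal) for each of the 77 members, in Treg (left) and Tcon (right). In Treg, Mrpl33 lies alone at 0.69 in spleen and -0.63 in lymph node, and in Tcon it lies at -0.06 and 0.35, at the edge of the other members.

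In Tcon, 0 of 77 members and 0% of 9886 genes were called for the organ by treatment term with limma, while 504 genes had an unadjusted p below 0.05. The same term called 0 to 15 Tcon genes across the other settings tried. Mrpl33 differed by -0.41 (95% interval -1.03 to 0.21, limma adjusted p = 0.913), the opposite sign to Treg, with -0.06 within spleen and 0.35 within lymph node. Within spleen Tcon 0 of 77 members and 0.303% of all genes were called, and within lymph node Tcon 0 of 77 and 0.142%. Mrpl21 at -0.46 and Mrps18c at -0.45 had values of this size in Tcon, so Mrpl33 ranked 3 of 77 there. The family median was -0.10 and that of all genes -0.01, with 21 of 77 members above 0. Without lymph node SAH library 3, the Mrpl33 difference within lymph node Tcon was 0.65 and was called, and without library 2 it was 0.05. These fits leave 1 SAH library in that organ. They also called more genes of the whole table than the fit with all libraries.

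The difference between the cell types in this organ dependence was tested in 1 model of the 12 libraries, a test added after the Treg value was known. Mrpl33 had a Treg minus Tcon value of 1.73 (95% interval 0.93 to 2.54, limma adjusted p = 0.999, unadjusted p = 0.000567), the largest size of 9784 genes. The next member, Mrps27, had 0.64. In this limma fit 0 members and 0% of genes were called; 151 genes had an unadjusted p below 0.05, and voom also called 0. With the library number as a block, which pairs the Treg and Tcon libraries that share a number, the value was the same and was called (limma adjusted p = 0.00231), as 4 genes were. It was also called without lymph node SAH Tcon library 3, at 2.03 (limma adjusted p = 0.0104). The call for the cell type difference of Mrpl33 thus depends on whether the numbers are taken as pairs and on which libraries are used. Libraries that share a number did deviate together, and the fit without the block takes no account of that.

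The Mrpl33 gene shares its locus. Rbks, which encodes ribokinase, is annotated on the other strand at chr5:31624439-31697627, over a stretch of the Mrpl33 gene beyond its coding part, and the noncoding Gm43809 overlaps it on the same strand and was not analysed here. The library kit marks strand, but the use of strand in counting is not given in the sources used here, and without it reads where Mrpl33 and Rbks overlap cannot be told apart. Rbks had 6.88 and 5.99 CPM in spleen SAH Treg and 5.06 CPM in spleen vehicle Treg. In lymph node Treg it had 5.31 and 5.03 CPM with SAH and 5.25 CPM with vehicle. Rbks was thus higher with SAH in spleen and level with vehicle in lymph node, and its organ by treatment difference was 0.31 (95% interval -0.20 to 0.82, limma adjusted p at least 0.999). In Tcon it had 5.45 CPM in lymph node SAH library 2, its highest there, 4.49 CPM in the other lymph node SAH library and 4.21 CPM in lymph node vehicle. The other genes within 100 kb, Gpn1 (a GTPase), Supt7l (a subunit of the SAGA complex), Slc4a1ap and Bre (a DNA repair subunit, now Babam2), had organ by treatment differences in Treg of -0.12, -0.21, 0.21 and 0.00. None of these 4 was called for SAH in either cell type, and Supt7l was called lower in spleen Treg at -0.33 (limma adjusted p = 0.00933).

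Transcript length was set beside the Mrpl33 values, since its coding transcript is among the shortest of the family. Genes with a coding transcript of at most 600 bases numbered 93 in Treg and 95 in Tcon. Their median organ by treatment difference in Treg was -0.02, with 0.03 within spleen and 0.04 within lymph node, beside 1.32, 0.69 and -0.63 for Mrpl33. In Tcon their median was -0.15, with -0.01 within spleen and 0.12 within lymph node, beside -0.41, -0.06 and 0.35 for Mrpl33, so the signs were the same there. In Tcon, library 2 had short genes 0.12 log2 units above the mean of the lymph node libraries, where Mrpl33 was 0.42 above it. The other short members, Mrpl52 and Mrps21, had a median organ by treatment difference of -0.12 in Treg. The part of transcript length in the Mrpl33 values was not tested.

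Genes whose pattern over the 12 libraries was most like that of Mrpl33 were Elmo2 (Pearson r = 0.96), Fam26f (0.90), Eif2b4 (0.89), Rps6kb2 (0.88) and Ctnnal1 (0.87), on log2(CPM + 1) after the mean of each cell type and organ was removed. They are the top 5 genes listed in both tables, a description with no p. Elmo2, which encodes an engulfment adaptor, had 67.5 and 67.9 CPM in spleen SAH Treg and 64.5 CPM in spleen vehicle Treg, and 63.6 and 62.3 CPM in lymph node SAH Treg and 66.3 CPM in lymph node vehicle Treg. The organ by treatment difference in Treg was 0.14 for Elmo2, 0.17 for Eif2b4 (an initiation factor subunit) and 0.27 for Rps6kb2. For Fam26f it was 0.44 and for Ctnnal1 0.76, and none of the 5 was called. Ctnnal1, at a low level, had 1.88 and 2.01 CPM in spleen SAH Treg and 1.02 CPM in spleen vehicle Treg, and 2.66 and 2.35 CPM in lymph node SAH Treg and 3.08 CPM in lymph node vehicle Treg. Ctnnal1 was higher with SAH in spleen and lower in lymph node. All 5 genes were picked for likeness to Mrpl33 in these same libraries, so a shared direction is no separate result. Eif2b4 lies 404 kb from Mrpl33 on chromosome 5, while Elmo2 is on chromosome 2, Rps6kb2 on chromosome 19 and Ctnnal1 on chromosome 4. Of the members, Mrpl14 was most like Mrpl33 (r = 0.76) and Mrpl52 least (r = -0.62), with a median of 0.13.

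With SAH over both organs, no member of the family was called in Treg. In the limma model with organ as a term, 0 of 77 members were called, beside 0.202% of all genes. In that model 2 members had an unadjusted p below 0.05, beside 7.04% of all genes. The voom fit on rebuilt reads also called 0 members. The median log2 change was 0.01 for members and 0.00 for all genes, with 42 of 77 above 0. Large subunit genes had a median of 0.01 and small subunit genes of -0.02. Mrpl33 was at 0.03 (95% interval -0.39 to 0.45, limma adjusted p = 0.995), since its differences in the organs are opposite. Without spleen vehicle library 4 the value was -0.63, and without lymph node vehicle library 1 it was 0.69. These 2 repeat the differences within lymph node and within spleen. Without spleen SAH library 5 or 6 the value was -0.07 and -0.05.

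Members with the most negative SAH values in Treg were Mrpl55 at -0.23, Mrpl17 at -0.13 and Mrps10 at -0.12. Those with the most positive were Mrpl41 at 0.19, Mrpl16 at 0.15 and Mrps28 at 0.14 (limma adjusted p at least 0.699 each). Mrpl55, the counterpart of bacterial L31, had 5.93 and 7.25 CPM in spleen SAH Treg and 7.68 CPM in spleen vehicle Treg. In lymph node Treg it had 7.18 and 6.86 CPM with SAH and 8.60 CPM with vehicle. All 4 SAH values were below the vehicle value of their organ, by a difference that did not pass the test. SAH libraries on the same side of vehicle in both organs were seen for 15 of 77 members and 25.2% of all genes in Treg.

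In Tcon, 0 of 77 members were called for SAH, beside 1.04% of all genes. An unadjusted limma p below 0.05 was found for 5 members, beside 14.1% of all genes. The voom fit again called 0 members. The median log2 change was -0.04 for members and -0.00 for all genes, with 30 of 77 above 0. The most negative members were Mrpl22 at -0.25, Mrps18c at -0.19 and Mrpl19 at -0.17, and the most positive Mrps28 at 0.20, Mrpl33 at 0.15, Mrpl16 at 0.14 and Mrps5, the counterpart of bacterial S5, at 0.13. All had a limma adjusted p of at least 0.272. Mrps28, of the small subunit, had 10.4 and 11.3 CPM in spleen SAH Tcon and 9.74 CPM in spleen vehicle Tcon. In lymph node Tcon it had 11.4 and 11.2 CPM with SAH and 9.25 CPM with vehicle, so all 4 SAH values lay above vehicle. In Tcon 12 of 77 members and 33.3% of all genes had SAH libraries on the same side of vehicle in both organs. The direction of Mrpl33 in Tcon (95% interval -0.19 to 0.48) turned without lymph node vehicle library 1, at -0.06, and without lymph node SAH library 2, at -0.01.

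The authors' deposited table calls 0 of 77 members for SAH in Treg and 0 in Tcon, of 49 and 317 genes called in all. For Mrpl33 the authors' deposited table gives a log2 fold change of -0.02 with a false discovery rate of 0.999 in Treg and 0.16 with 0.863 in Tcon. These compare SAH with vehicle without regard to the difference between organs.

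The SAH difference between the cell types was called for 0 of 77 members, beside 0% of 9784 genes in limma, and 453 genes, 1 of them a member (Mrpl44), had an unadjusted p below 0.05. With the library number as a block, 76 genes were called and still 0 members. Mrpl33 had a Treg minus Tcon value of -0.11 (95% interval -0.78 to 0.55, limma adjusted p near 1), which turned to 0.55 without lymph node vehicle Treg library 1, and to between 0.01 and 0.09 without lymph node SAH Treg library 3, lymph node vehicle Tcon library 1 or lymph node SAH Tcon library 2.

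Between spleen and lymph node in Treg, members were called no more often than genes in general. Compared with lymph node, 4 of 77 members were called lower in spleen, where 6.01% of all genes were, and 0 higher, where 8.71% were: Mrpl45, Mrpl49, Mrps2 and Mrpl2. In either direction 14.7% of all genes were called, so these 4 calls are not a result about the family. In all, 54 of 77 members had a value below 0, with a median of -0.06, where all genes had -0.00. Of the 4, 3 are of the large subunit, and 2 have a bacterial counterpart while 2 are found only in mitochondria.

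Mrpl45 encodes a large subunit protein that joins the exit of the new peptide to the inner membrane. It had 19.3, 18.8 and 18.3 CPM in the spleen libraries (2 SAH, then vehicle) and 23.8, 23.0 and 22.9 CPM in the lymph node libraries, with no overlap. Its log2 difference was -0.29 (95% interval -0.44 to -0.15, limma adjusted p = 0.00875). Mrps2, the counterpart of bacterial S2 in the small subunit, had 18.6, 17.2 and 17.6 CPM in spleen and 22.0, 20.3 and 22.6 CPM in lymph node. Its difference was -0.27 (limma adjusted p = 0.0242). For Mrpl49, a large subunit protein found only in mitochondria, the difference was -0.25 (limma adjusted p = 0.0200), and for Mrpl2, the counterpart of bacterial L2 at the site where amino acids are joined, -0.23 (limma adjusted p = 0.0483). All 3 spleen libraries lay below all 3 lymph node libraries for each of the 4. That was so for 16 of 77 members and 15.1% of all genes.

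**Figure D5:**
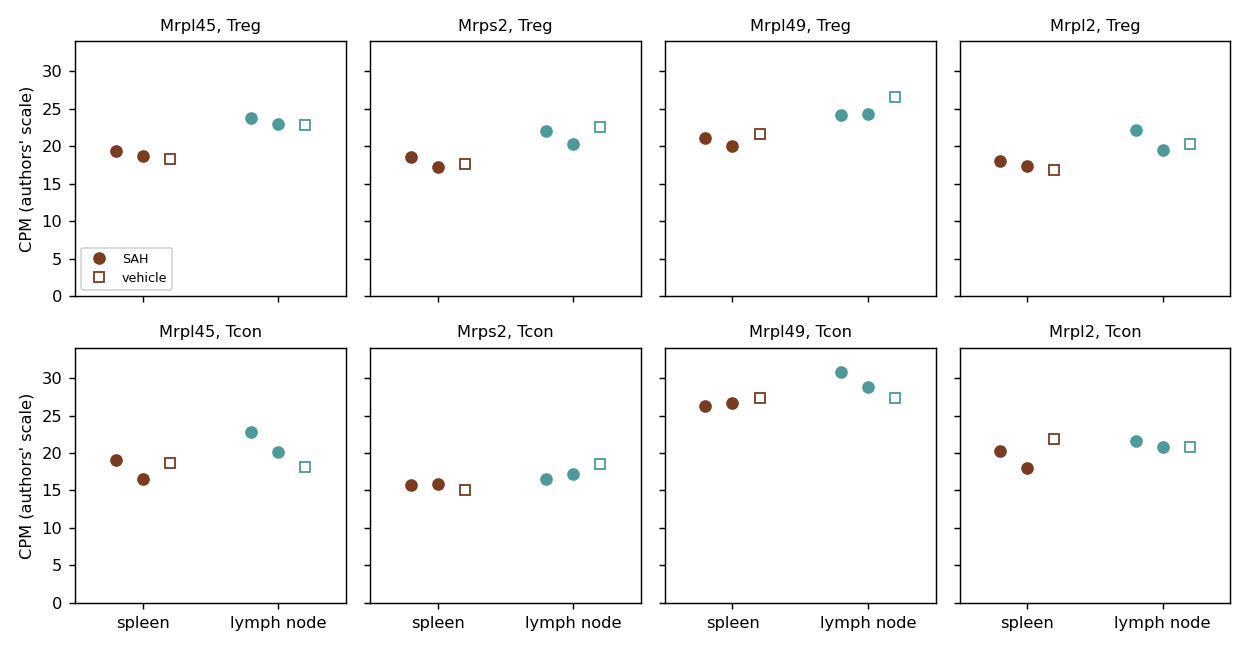
CPM (vertical) in each library of spleen and lymph node for the 4 members called lower in spleen in Treg, in Treg (top) and Tcon (bottom). Filled circles are SAH and open squares vehicle libraries; in Treg the spleen and lymph node libraries do not overlap for any of the 4, and in Tcon the difference was not called.

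The calls of these 4 moved with the libraries used, while their values moved less. With 1 library left out, Mrpl45 ran from -0.31 to -0.28, Mrps2 from -0.31 to -0.23, Mrpl49 from -0.28 to -0.23 and Mrpl2 from -0.29 to -0.19. Leaving out lymph node SAH library 2 ended all 4. Leaving out lymph node vehicle library 1 or spleen vehicle library 4 also ended all 4 and left Mrpl33 as the 1 member called. Its value was 0.81 higher in spleen in both cases, since both give the same difference of the SAH libraries between organs. Without lymph node SAH library 3, Mrpl49 was lost. Without spleen SAH library 5, Mrpl2 was lost and Mrpl51 and Mrps6 were called, and without library 6, Mrpl2 was lost and Mrps30 and Mrps34 were called. Centred on the family median, Mrpl45 was still called lower, the other 3 were not, and Mrps34, of the small subunit, was called higher at 0.26 (limma adjusted p = 0.0291), so the split was 1 higher and 1 lower in place of 0 and 4. With libraries rescaled to the same total, 7 members were called lower, the 4 with Mrpl12, Mrpl51 and Mrps6. The settings that keep all libraries called 1347 to 1552 of 10405 genes in either direction, and the member counts are read beside that. With 1 library left out, calls over all genes moved too. On the authors' scale Mrps34 was at 0.21 (limma adjusted p = 0.0851) and Mrps24 at 0.14. Mrpl33 itself was at 0.37 (95% interval -0.03 to 0.76, limma adjusted p = 0.211), the most positive member.

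Markers of other cells also differed between the organs, in Treg and in Tcon. Values of Treg come first. The 4 of 6 myeloid and dendritic markers in the table summed to 57.5 to 73.6 CPM in spleen SAH and 38.9 CPM in spleen vehicle, and to 6.15 to 8.01 CPM in lymph node SAH and 7.01 CPM in lymph node vehicle; Cd14 and Itgax are not in the table. The 2 of 3 plasma cell markers summed to 173 to 216 CPM in spleen SAH and 213 CPM in spleen vehicle, and to 97.5 to 98.2 CPM in lymph node SAH and 81.5 CPM in lymph node vehicle; Sdc1 is not in the table. The 2 of 5 B cell markers summed to 11.5 to 16.0 CPM in the 3 spleen libraries and 9.95 to 11.3 CPM in the 3 lymph node libraries. The 2 of 5 CD8 T and NK cell markers summed to 21.7 to 22.0 CPM in spleen SAH and 20.9 CPM in spleen vehicle, and to 32.5 to 33.5 CPM in lymph node SAH and 31.4 CPM in lymph node vehicle, with no overlap between organs. Alas2, the 1 of 5 red cell markers in the table, had 2.31 to 28.8 CPM in the 3 spleen libraries and 0.600 to 0.784 CPM in the 3 lymph node libraries. In Tcon, 3 of 6 myeloid and dendritic markers summed to 33.4 to 36.5 CPM in spleen SAH and 29.9 CPM in spleen vehicle. In lymph node Tcon they had 10.4 to 11.9 CPM with SAH and 10.7 CPM with vehicle. The CD8 T and NK cell markers in Tcon had 42.5 to 55.6 CPM in spleen and 24.7 to 28.2 CPM in lymph node, opposite to Treg. Plasma and B cell markers were higher in spleen Tcon. The part of these markers in the organ differences was not tested. Nor was that of the myeloid markers in the spleen difference of Mrpl33 with SAH.

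In Tcon, 0 of 77 members were called between spleen and lymph node, beside 4.73% of all genes. An unadjusted limma p below 0.05 was found for 3 members, beside 17.4% of all genes. The voom fit called 0. The most negative were Mrpl12, the stalk protein of the large subunit, at -0.21 (limma adjusted p = 0.208) and Mrps22 at -0.19. Mrpl40 at 0.12 and Mrps17 at 0.12 were the most positive, and Mrpl33 was at -0.04 (95% interval -0.36 to 0.27, limma adjusted p = 0.915), a direction that turned without library 2 or library 5. The 4 members called in Treg had values of -0.16 for Mrpl45, -0.11 for Mrpl49, -0.15 for Mrps2 and -0.07 for Mrpl2 in Tcon. Of these, Mrps2 had no overlap in Tcon either, at 15.7, 15.8 and 15.1 CPM in spleen (2 SAH, then vehicle) and 16.5, 17.2 and 18.6 CPM in lymph node, as was so for 7 of 77 members and 9.33% of all genes. Without lymph node SAH library 2, Mrpl52 was called, and calls over all genes also moved with the library left out.

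The organ difference itself differed between Treg and Tcon for 0 of 77 members, beside 1.46% of 9784 genes. An unadjusted limma p below 0.05 was found for 5 members, beside 12.2% of all genes. The Treg minus Tcon values of the 4 members ran from -0.16 for Mrpl2 to -0.11 for Mrps2 (limma adjusted p at least 0.563). None of the 4 was called in this fit, which takes no account of the shared library numbers. With the library number as a block, Mrps34 and Mrps6 were called, 2 of 77, among 703 genes, and the 4 members were again not called. Without the block, Mrpl33 had 0.41 (95% interval -0.22 to 1.04, limma adjusted p = 0.633).

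Other genes of mitochondrial translation were not called with SAH either. Of 39 translation factors and tRNA charging genes, 24 assembly and rRNA modification genes, 5 mitoribosomal proteins with other symbols and 12 regulators of nuclear genes for mitochondria, 0 were called for SAH in Treg and 0 in Tcon, beside 0.202% and 1.04% of all genes. The 13 proteins encoded by mitochondrial DNA, which this ribosome makes, had RNA values from 0.05 to 0.13 for SAH in Treg, with a median of 0.11, and from 0.02 to 0.09 in Tcon, with 0 called in each. Of 76 cytosolic ribosomal protein genes, 0 were called in Treg, with a median of 0.01. In Tcon 1 was called, Rpl38 at 0.32 (limma adjusted p = 0.0462), with a median of 0.17 and 75 of 76 above 0, beside the mitochondrial family's median of -0.04.

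Between spleen and lymph node in Treg, 6.01% of all genes were called lower, and the counts of these lists are read beside that share. The assembly list had 1 gene lower of 24, C1qbp, a matrix protein needed for mitochondrial translation, at -0.23 (limma adjusted p = 0.0407). The regulators had 1 lower of 12, Pprc1, a coactivator of the PGC-1 family, at -0.22 (limma adjusted p = 0.00950). The translation factors had 0 called of 39, with a median of -0.11. The cytosolic ribosomal proteins had 9 lower of 76, with a median of -0.08, among them Rps9 at -0.29 and Rps26 at -0.24 (limma adjusted p = 0.0105 and 0.00248). In Tcon 0 genes of these lists were called between organs, beside 4.73% of all genes.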

How the data were processed

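Each cell type has 1 table deposited by the authors, made with TopHat, Bowtie and edgeR on mm10 per the submitters' processing notes, which give no versions; not given in the sources used here: which program counted reads, and on which gene models. The deposited signal of each gene and library is called CPM, per the file headers, and column totals of 971928 to 1021430 show a scaling factor per library. The deposited log2 fold change, p-value column (a false discovery rate) and score (a call of up, down or neither) are the authors' own, per the file headers, and are used only where named.

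Tests ran on log2(CPM + 1), in R 4.3.3 with limma 3.58.1. A minimum of 1 CPM in 2 or more libraries removed 0 genes. Fold changes on this scale understate the change of low genes. Organ and treatment were terms of 1 model per cell type (3 residual degrees of freedom), their product was added for the organ by treatment term (2), and cell types were compared in 1 model of the 12 libraries (6, or 4 with the product). All p-values called adjusted come from limma, by the Benjamini-Hochberg procedure on every gene of the table. Low values fell on steps of a single read (100% within 0.1 of a whole read for values under 3 CPM), from which reads were rebuilt for counting intervals and voom. Libraries that share a number in Treg and Tcon deviated together from their group means. Pearson r across 9784 genes was 0.438 for numbers 2 and 3 and 0.556 for 5 and 6, where each pair of numbers gives 1 value. The numbers, from the titles, are thus read as pairing the libraries. The models reported for Treg minus Tcon are without that block. They take the 12 libraries as independent, which this pairing goes against. The fit with the block is given where it changes a call. The model was also run on counts simulated from each gene's mean over the 6 libraries. Those counts held no organ effect and no pairing of library numbers, so no conclusion is drawn from them.

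Lengths and coordinates are from GENCODE vM21, using the principal coding transcript. Members, lists and tests were chosen with earlier results of these data known. Genes named are Mrpl33, called members, the members at either end of each comparison (3 for SAH, 2 for organ) and of the level order, called genes of the lists, neighbours within 100 kb and the 5 genes most like Mrpl33; members next in order were named after their values were seen.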

Additional observations from a re-analysis of the deposited data

Results flagged for a closer look

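Mrpl33 is listed here because the effect of SAH on it in Treg differed between spleen and lymph node by the test of that difference, at 1.32 log2 units (limma adjusted p = 0.0143), with both SAH libraries above vehicle in spleen and both below it in lymph node. Its exact permutation p was 0.111, the smallest possible with 9 arrangements. Groups held 1 or 2 libraries, too few to single out one library as far from the rest of its group.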

How the results depend on the processing

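The alternatives were pseudocounts of 0.1 and 5, no filter, a mean of at least 5 CPM, rescaled totals, centring on the family median, identical rows kept once, no organ term, the library number as a block, voom on rebuilt reads (chosen after seeing the data) and each library left out. edgeR and DESeq2 were not run, since the deposited values are scaled and not counts. The organ by treatment value of Mrpl33 in Treg stayed called at 1.06 to 1.42 under the 8 settings that keep all libraries. Leaving out a SAH library it was 1.26 to 1.38, with 0 to 1 members called; no value exists without a vehicle library. Rescaling to the same total called 7 members for organ in Treg. Centring on the family called 2 members for organ in Treg, and gave Mrpl33 -0.65 (adjusted p = 0.0194) within lymph node Treg and 0.77 (adjusted p = 0.00350) within spleen Treg, 1 member called in each. A pseudocount of 0.1 gave -0.67 (adjusted p = 0.0476) within lymph node and 1 called, and a mean of at least 5 CPM gave 0.69 (adjusted p = 0.0453) within spleen and 1 called. The replicate block called 2 members for organ between cell types and 1, Mrpl33 at 1.73, for the organ by treatment term between cell types, and changed no other member call. With 1 library left out, the SAH value of Mrpl33 ran from -0.63 to 0.69 in Treg, -0.060 to 0.35 in Tcon and -0.77 to 0.55 between them; its organ value ran from 0.20 to 0.81 in Treg and -0.18 to 0.17 in Tcon. Within lymph node it ran from -0.69 to -0.56 in Treg and 0.050 to 0.65 in Tcon, within spleen Treg from 0.67 to 0.72, and its organ by treatment difference between cell types from 1.43 to 2.03, each with 0 to 1 members called. Members called for organ were then 0 to 5 in Treg and 0 to 1 in Tcon. Mrpl16 ran from -0.049 to 0.32 and Mrps18c from -0.42 to 0.031 for SAH in Tcon. No other named member changed direction in any setting. Over all genes, calls ran from 1 to 95 (21 as reported) for SAH in Treg, 1 to 226 (103) in Tcon and 0 to 76 (0) between them; from 768 to 1830 (1531) for organ in Treg, 215 to 628 (468) in Tcon and 79 to 703 (143) between them; and from 0 to 94 (1) and 0 to 15 (0) for the organ by treatment term in Treg and Tcon. The cause of these shifts was not tested. With 1 vehicle library per organ, its own error cannot be measured.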
